A study of Mus musculus with 9 samples.

Results

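The adult globin genes Hba-a1, Hba-a2, Hbb-bs and Hbb-bt and the erythroid heme enzyme gene Alas2 were followed in the brain cortex of 9 male mice, as 5 of the 54532 genes of the expression table. The genes were chosen by name, with their levels in these mice already known, so that their levels, strain differences and copy ratios are given as descriptions, without tests. The mice were 3 C57BL6/J (B6, from which the mouse reference genome comes), 3 C3H/HeJ (C3H, a classical inbred strain) and 3 WSB/EiJ (WSB, a wild-derived inbred strain), all untreated adults of 8 to 12 weeks. The strains were obtained from the Jackson Laboratory and bred locally, and the study compared their cortex while searching for genes behind differences in stroke damage. Whether blood was flushed from the animals before the cortex was frozen is not given in the sources used here.

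Haemoglobin, the oxygen carrier of red cells, is a tetramer of alpha chains, encoded by the Hba genes, and beta chains, encoded by the Hbb genes, each holding a heme group. Alas2 makes the first and rate-limiting enzyme of heme synthesis in red cell precursors, whereas its paralog Alas1 serves other cells. Red cells carry no nucleus, but the youngest of them, the reticulocytes, still hold globin mRNA. Globin mRNA in brain tissue usually comes with blood in the vessels, and low globin expression has also been described in some neurons. Inbred mouse strains carry different beta globin haplotypes, of which Hbb-bs and Hbb-bt are the adult genes of the one in the B6 reference. The adult genes of the other common haplotype, Hbb-b1 and Hbb-b2, were not analysed here.

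On GRCm38, Hba-a1 (ENSMUSG00000069919) lies on the plus strand of chromosome 11 from 32283511 to 32284465. Hba-a2 (ENSMUSG00000069917) follows it on the same strand from 32296489 to 32297298, with 12023 bases between them. Hbb-bt (ENSMUSG00000073940), on the minus strand of chromosome 7 from 103812524 to 103813996, is separated by 12537 bases from Hbb-bs (ENSMUSG00000052305), which spans 103826534 to 103828096. Each of these genes has 3 exons. Alas2 (ENSMUSG00000025270) has 11 exons and spans 150547375 to 150570638 on the plus strand of the X chromosome.

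The copies of each pair are nearly the same in their coding sequence, so the bases that separate them are shown first. Over the 426 coding bases (stop codon left out), Hba-a1 and Hba-a2 of the reference differ by the single substitution C381T, with the base of Hba-a1 first and positions counted from 1 at the A of the start codon. Hbb-bs and Hbb-bt differ over 441 coding bases by C417T, with the base of Hbb-bs first. Both substitutions lie in exon 3, whose coding part of 126 bases is given for each gene in the direction of the gene, with the differing base in capitals, for Hba-a1 at chr11:32284263-32284388, for Hba-a2 at chr11:32297080-32297205, for Hbb-bs at chr7:103826668-103826793 and for Hbb-bt at chr7:103812659-103812784 (GRCm38).
Hba-a1: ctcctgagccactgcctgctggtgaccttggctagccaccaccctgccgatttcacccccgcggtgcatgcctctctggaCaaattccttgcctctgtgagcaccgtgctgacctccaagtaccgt
Hba-a2: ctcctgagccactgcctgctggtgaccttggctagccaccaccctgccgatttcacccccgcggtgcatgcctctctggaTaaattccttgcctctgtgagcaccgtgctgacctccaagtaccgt
Hbb-bs: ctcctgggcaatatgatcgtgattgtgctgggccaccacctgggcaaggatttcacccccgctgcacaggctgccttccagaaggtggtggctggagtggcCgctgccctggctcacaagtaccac
Hbb-bt: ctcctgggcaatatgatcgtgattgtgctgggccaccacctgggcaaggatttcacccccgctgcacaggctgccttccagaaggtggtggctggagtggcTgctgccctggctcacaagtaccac

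The untranslated ends differ more than the coding parts. Of all stretches of 150 bases, the read length, in the reference transcript of Hba-a1 (699 bases), 48.4% were found unchanged in Hba-a2, and 65.7% of those in Hba-a2 (554 bases) were found in Hba-a1. The shares were 58.7% for Hbb-bs (628 bases) in Hbb-bt and 50.7% for Hbb-bt (703 bases) in Hbb-bs. Within the coding sequence, 83.4% of such stretches were common to the alpha pair and 91.4% to the beta pair. No stretch of 150 bases in any of the 4 globin transcripts was found in a transcript of any other gene, and Alas2 shared none. How the authors' counting treated a read that matched both copies is not given in the sources used here, so the level of a single copy is uncertain and the sum of a pair is less so. The C3H and WSB sequences of these genes were not analysed here.

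The bases before each gene's RefSeq transcription start on GRCm38.p6 were searched on both strands for 4 short motifs. The RefSeq start lies inside the GENCODE span given above, by 161 bases in Hba-a1, 3 in Hba-a2, 168 in Hbb-bs, 73 in Hbb-bt and 42 in Alas2, so the searched bases lie partly or, for the stretches of Hba-a1 and Hbb-bs shown here, wholly within the span of the longer GENCODE models. These were GATAA, the core bound by GATA factors, CACCC, a sequence bound by Klf factors, CCAAT, and TATAA of the TATA box. The last 100 bases before the start are shown for one alpha gene, both beta genes and Alas2, with matches in capitals on either strand, for Hba-a1 at chr11:32283572-32283671 (plus strand), Hbb-bs at chr7:103827929-103828028 (minus strand), Hbb-bt at chr7:103813924-103814023 (minus strand) and Alas2 at chrX:150547317-150547416 (plus strand).
Hba-a1: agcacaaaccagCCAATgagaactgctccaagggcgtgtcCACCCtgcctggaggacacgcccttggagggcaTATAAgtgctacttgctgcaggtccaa
Hbb-bs: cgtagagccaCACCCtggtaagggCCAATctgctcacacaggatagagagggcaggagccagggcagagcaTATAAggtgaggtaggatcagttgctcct
Hbb-bt: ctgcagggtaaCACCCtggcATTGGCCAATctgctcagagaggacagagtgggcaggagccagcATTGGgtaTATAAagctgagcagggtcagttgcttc
Alas2: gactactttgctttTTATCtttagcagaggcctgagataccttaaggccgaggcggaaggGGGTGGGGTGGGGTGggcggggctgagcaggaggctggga

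In Hbb-bs and Hbb-bt a CACCC stood upstream of the nearest CCAAT on the gene strand, which was followed by the TATAA, beginning 29 and 28 bases upstream. In Hba-a1 the CCAAT, beginning 88 bases upstream, stood between CACCC matches beginning 167 and 60 bases upstream. Only the nearer CACCC lies in the bases shown, and the TATAA began 27 bases upstream. Over the full 250 bases, GATAA was found once in each of the 5 genes and in 23.0% of the 27025 promoters of the RefSeq table. CACCC was found in all 5 and in 51.3% of all promoters. CCAAT was found in the 4 globin promoters, not in Alas2, and in 34.5% of all promoters, and TATAA in all 5 and in 23.5%. The 250 bases before Hba-a1 and before Hba-a2 shared an unbroken run of 247 bases, while the longest run shared by Hbb-bs and Hbb-bt was 14 bases. These matches describe the reference sequence and were not tested for function.

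Levels are given in FPKM, which divides the fragments counted on a gene by its length in kilobases and by a library size. FPKM times gene length moved in equal steps within a library, so the number of reads behind each value could be recovered. Reads on genes numbered 17651630 to 21562429 per B6 mouse. C3H mice had 19042306 to 19433751 and WSB mice 16317439 to 17784118. Markers of cortical neurons were abundant in all 9 libraries, and the summed level of 14 cortex markers ranged over 1521 to 1684 FPKM in B6, 1467 to 1595 in C3H, and in WSB 1339 to 1402. The summed level of 10 choroid plexus markers varied much more, over 97.6 to 845, 121 to 722 and 509 to 667 FPKM, respectively. Ttr, the transthyretin gene and the most abundant of them, ran from 61.7 to 749 FPKM within B6 alone.

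Hba-a1, the more abundant alpha gene, measured 58.5, 55.2 and 68.5 FPKM in the B6 mice, 309, 245 and 339 in the C3H mice and 99.5, 127 and 118 in the WSB mice. The 3 strains did not overlap, with C3H highest and B6 lowest. The C3H mean was 4.90 times the B6 mean (difference of mean log2(FPKM + 0.1) 2.28, SE 0.14, called the log2 difference hereafter), and the WSB mean was 1.89 times the B6 mean (log2 difference 0.91, SE 0.12).

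Hbb-bs, the more abundant beta gene, measured 134, 121 and 144 FPKM in B6, 332, 303 and 516 in C3H and 153, 163 and 129 in WSB. All C3H mice lay above all others, while the B6 and WSB mice overlapped. The C3H mean was 2.89 times that of B6 (log2 difference 1.49, SE 0.19), and WSB differed from B6 by 0.16 on the log2 scale (SE 0.11).

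Alas2 measured 1.44, 1.52 and 1.76 FPKM in B6, 3.69, 3.09 and 3.37 in C3H and 1.90, 1.35 and 1.55 in WSB, from 56 to 165 reads per mouse. As for Hbb-bs, the C3H mice stood above all others and B6 and WSB overlapped. The C3H mean of 3.38 ± 0.30 FPKM (SD, n = 3) was 2.15 times the B6 mean of 1.57 ± 0.16 (log2 difference 1.06, SE 0.13). WSB, at 1.60 ± 0.28, differed from B6 by 0.01 on the log2 scale (SE 0.17). Alas2 shares 311 exon bases with Apex2, a DNA repair gene on the other strand, and overlaps the microRNA gene Mir3620, and whether the counting used strand is not given in the sources used here. Apex2 ranged over 0.504 to 0.601 FPKM in B6, 0.424 to 0.510 in C3H, and in WSB 0.495 to 0.657, and the part of shared reads in either gene was not tested.

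Hba-a2, the second alpha gene, measured 9.96, 15.3 and 12.3 FPKM in B6, 1.37, 78.1 and 82.2 in C3H and 29.6, 35.5 and 0.246 in WSB. One C3H mouse and one WSB mouse lay far below their strain mates, at 17 and 3 reads against at least 328 reads in the others of these strains. The strain means therefore describe no mouse well. The WSB mean was 1.74 times the B6 mean, yet the mean log2 difference was -0.80 (SE 1.62), and for C3H against B6 these values were 4.30 times and 0.77 (SE 1.41). All comparisons of Hba-a2 overlapped. Without C3H replicate 1 the log2 difference from B6 was 2.69, and without WSB replicate 3 it was 1.39.

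Hbb-bt, the second beta gene, measured 23.4, 23.5 and 27.8 FPKM in B6, 5.27, 2.20 and 69.3 in C3H and 1.11, 1.89 and 0.389 in WSB. The WSB mice lay below all others, at 5 to 23 reads against 294 to 417 in B6. The WSB mean was 0.0454 of the B6 mean (log2 difference -4.56, SE 0.45). The C3H mice spanned the B6 range, with one above it and the others below, and the log2 difference of -1.39 (SE 1.08) ranged from -2.82 without C3H replicate 3 to -0.37 without C3H replicate 2.

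**Figure D1:**
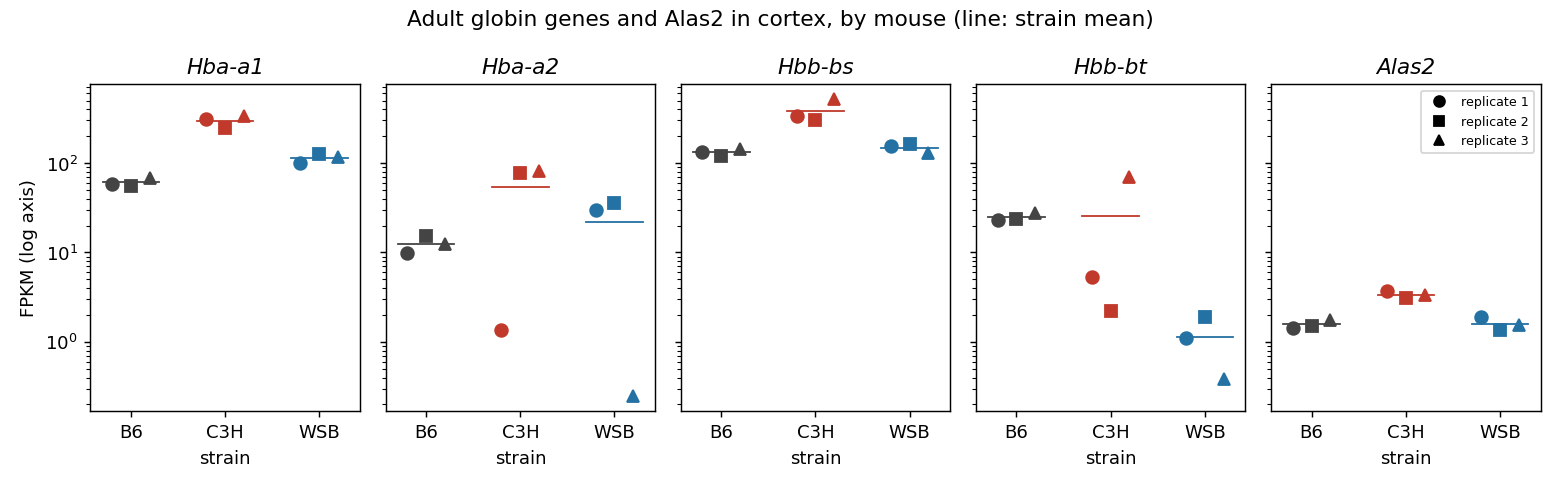
FPKM on a log axis of the 5 genes in each of the 9 mice, by strain, with a symbol for each replicate number and a line at the strain mean. In Hba-a1, Hbb-bs and Alas2 the 3 C3H mice lie above all other mice, whereas C3H replicate 1 and WSB replicate 3 drop to 1.37 and 0.246 FPKM in Hba-a2, and C3H replicate 3 stands at 69.3 FPKM in Hbb-bt above its strain mates.

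Counted over the 5 genes, 3 were higher in C3H than in B6 without overlap of the mice, namely Hba-a1, Hbb-bs and Alas2, and none was lower. Of all 20602 genes tested in that comparison, 14.9% were higher without overlap and 14.0% lower. Against B6, WSB was higher without overlap in Hba-a1 and lower in Hbb-bt, where 13.0% and 13.1% of 20746 genes were higher and lower. Against C3H, WSB was lower without overlap in 4 genes, all but Hba-a2, where 14.4% of 20607 genes were lower. Since these genes were chosen with their levels known, nothing is read from these counts. By strain, the order of levels in B6 was Hbb-bs, Hba-a1, Hbb-bt, Hba-a2 and Alas2, with no overlap between neighbours. In C3H the mice overlapped between Hbb-bs and Hba-a1 and among Hba-a2, Hbb-bt and Alas2, and in WSB only among the last 3 of these.

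Summing the 4 globin genes removes the split between copies. The sum was 226, 215 and 253 FPKM in the B6 mice, 648, 629 and 1006 in the C3H mice and 283, 327 and 247 in the WSB mice. C3H lay above both other strains without overlap, and B6 and WSB overlapped. The C3H mean of 761 ± 212 FPKM (SD, n = 3) was 3.29 times the B6 mean of 231 ± 19.3 (log2 difference 1.69, SE 0.23), and the WSB mean of 286 ± 40.0 was 1.24 times that of B6 (log2 difference 0.30, SE 0.14). As a share of all reads on genes, the globins took 0.0167% to 0.0192% in B6, 0.0493% to 0.0774% in C3H, and in WSB 0.0200% to 0.0260%. In bulk tissue, more cells of a kind and more RNA per cell cannot be told apart.

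The spread within a strain was unequal. The coefficient of variation of the globin sum was 8.37% in B6, 27.9% in C3H and 14.0% in WSB, where the median over genes of at least 1 FPKM was 8.90%, 10.1% and 9.26%. In C3H 91.6% of genes varied less than the globin sum, in WSB 71.3% and in B6 46.5%. C3H replicate 3 held the highest sum of all mice, with the highest beta sum, 585 FPKM, and the highest alpha sum, 421 FPKM. Its Alas2 level of 3.37 FPKM lay between those of its strain mates, so that Alas2 per 100 FPKM of globin was 0.335 in this mouse, the lowest of the 9. The other C3H mice had 0.569 and 0.491, the B6 mice 0.638, 0.709 and 0.696 and the WSB mice 0.671, 0.411 and 0.626.

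The ratio of summed alpha to summed beta FPKM separated B6 from the other strains. It was 0.436, 0.488 and 0.471 in the B6 mice, 0.920, 1.06 and 0.719 in the C3H mice and 0.836, 0.982 and 0.912 in the WSB mice. The strain means were 0.465 ± 0.0268, 0.899 ± 0.171 and 0.910 ± 0.0726 (SD, n = 3), and every C3H and WSB mouse lay above every B6 mouse. The beta sum, 129 to 165 FPKM in WSB and 144 to 172 in B6, overlapped between these strains, whereas the alpha sum, 118 to 162 against 68.5 to 80.9 FPKM, did not. The beta sum of C3H and WSB holds only reads counted on the reference genes Hbb-bs and Hbb-bt, and how far reads of another haplotype were lost was not tested.

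**Figure D2:**
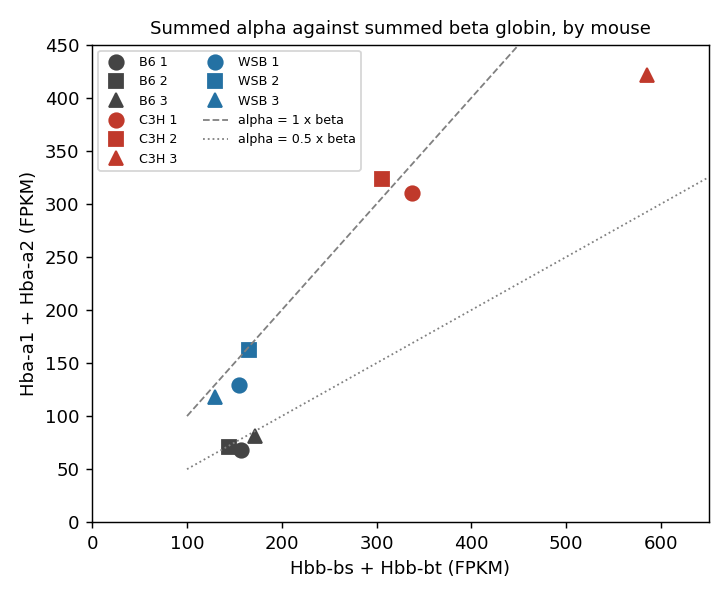
Summed FPKM of Hba-a1 and Hba-a2 (vertical axis) against summed FPKM of Hbb-bs and Hbb-bt (horizontal axis), both linear, one point per mouse, with lines where alpha equals beta and where alpha is 0.5 of beta. The B6 mice lie near the lower line, with ratios of 0.436 to 0.488, and the WSB and C3H mice lie nearer to the upper line, with ratios of 0.719 to 1.06.

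The split of reads between the copies differed between mice of one strain by more than counting error. Of the reads counted on the alpha pair, Hba-a2 took 12.3% (95% Wilson interval 10.4 to 14.5), 18.5% (16.4 to 20.9) and 12.9% (11.2 to 14.7) in the B6 mice. In the C3H mice it took 0.362% (0.226 to 0.580), 20.7% (19.6 to 21.9) and 16.6% (15.7 to 17.6), and in the WSB mice 19.6% (17.8 to 21.6), 18.7% (17.1 to 20.4) and 0.172% (0.0584 to 0.503). So 7 mice of 3 strains fell between 12.3% and 20.7%, and C3H replicate 1 and WSB replicate 3 below 1%. These intervals cover counting error only.

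The mice with few Hba-a2 reads had the lowest alpha sums of their strains. Summed alpha was 310.6 FPKM in C3H replicate 1 against 324 and 421 in its strain mates, and 118 FPKM in WSB replicate 3 against 129 and 162. Hba-a1 alone was not the highest of the strain in either mouse. It measured 309 FPKM in C3H replicate 1, between 245 and 339 in its strain mates, and 117.7 in WSB replicate 3, between 99.5 and 127. The log2 ratio of Hba-a1 to Hba-a2 was 2.29 ± 0.38 in B6, 3.80 ± 3.40 in C3H and 4.0 ± 3.82 in WSB (SD, n = 3). Leaving out C3H replicate 1 gave 1.85 in C3H, and leaving out WSB replicate 3 gave 1.79 in WSB.

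For the beta pair, Hbb-bt took 13.8% (12.4 to 15.3), 15.1% (13.7 to 16.7) and 15.0% (13.8 to 16.4) of the reads in the B6 mice, whose intervals overlapped. It took 1.43% (1.13 to 1.81), 0.660% (0.463 to 0.941) and 10.9% (10.3 to 11.6) in the C3H mice and 0.660% (0.386 to 1.13), 1.05% (0.700 to 1.57) and 0.276% (0.118 to 0.644) in the WSB mice. C3H replicate 3 thus stood near the B6 mice and apart from the other 5 mice of C3H and WSB. The log2 ratio of Hbb-bs to Hbb-bt was 2.41 ± 0.088 in B6, 5.30 ± 2.15 in C3H and 7.13 ± 0.85 in WSB (SD, n = 3), and was 6.50 in C3H without replicate 3. The mice with few Hba-a2 reads were not the mouse with many Hbb-bt reads, and what set the split in single mice was not tested.

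**Figure D3:**
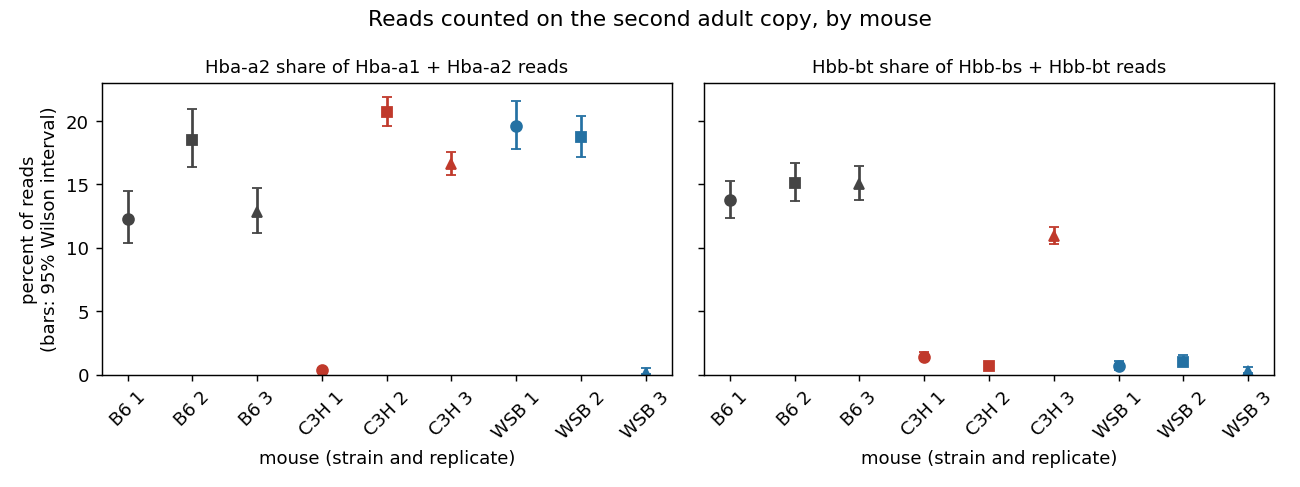
Percent of the reads of a pair counted on its second copy in each mouse, Hba-a2 of the alpha pair on the left and Hbb-bt of the beta pair on the right, with 95% Wilson intervals as bars. C3H replicate 1 and WSB replicate 3 lie at 0.362% and 0.172% on the left where the other mice lie at 12.3% or above, and on the right C3H replicate 3 lies at 10.9% where the other C3H and WSB mice lie at 1.43% or below.

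The other globin genes were tested with limma on log2(FPKM + 0.1) in one fit per pair of strains, over all genes averaging 0.1 FPKM or more in the 6 mice. An adjusted p (Benjamini-Hochberg) under 0.05 was the threshold. Of 11 such genes in the table, 5 were listed at 0 in every mouse, the embryonic Hbb-y and Hbb-bh1 and Hbb-bh0, Hbb-bh2 and Hbb-bh3. The embryonic Hba-x had 2 reads in one B6 mouse and 0 in all others. Of the 5 tested, only Hbq1a, a theta globin gene, passed, and only in WSB against B6, where 2.81% of all genes tested passed as higher in WSB. Hbq1a measured 0.647, 0.0820 and 0.622 FPKM in B6, 2.05, 2.14 and 2.13 in C3H and 2.69, 2.01 and 2.08 in WSB, from 1 to 8 reads per B6 mouse and 21 to 27 in the others. Both strains lay above B6 without overlap. The log2 difference was 2.34 (SE 0.53, adjusted p = 0.0473 by limma) for WSB and 2.26 (SE 0.52, adjusted p = 0.0552) for C3H, and the WSB call was lost when any mouse but B6 replicate 2 was left out. Of 9 alternative fits with all mice kept, 5 called Hbq1a in WSB and 4 in C3H. Its neighbour of similar sequence, Hbq1b, had 1 to 16 reads per mouse and did not pass. Neither did Ngb and Cygb, the neuroglobin and cytoglobin genes expressed outside red cells, or Mb, the myoglobin gene. Ngb averaged 4.87 FPKM in B6, 6.10 in C3H and 8.29 in WSB (adjusted p = 0.261 for WSB against B6).

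Among 16 other genes of heme synthesis and breakdown, all of them expressed, 2 were higher and 0 lower in C3H than in B6, where 4.64% of all genes tested passed, 2.38% as higher and 2.26% as lower. Alad makes the second enzyme of heme synthesis, which joins the products of Alas1 and Alas2 in pairs. It measured 9.52, 12.0 and 13.2 FPKM in B6, 38.9, 30.3 and 36.8 in C3H and 11.9, 12.1 and 13.0 in WSB, with C3H above all other mice. Alad was higher in C3H than in B6 by 1.60 on the log2 scale (SE 0.14, adjusted p = 0.000945 by limma) and lower in WSB than in C3H, with a log2 difference of -1.50 (SE 0.11, adjusted p = 0.000324), and both calls held in every alternative fit and with any mouse left out. The other gene that passed in C3H was Blvrb, a biliverdin reductase gene, at 5.20 ± 0.114 FPKM against 3.87 ± 0.0356 in B6 (log2 difference 0.42, SE 0.09, adjusted p = 0.0398). The Blvrb call held in only 1 of 6 fits that each left out a mouse, that without C3H replicate 2, and was lost with voom weights and without a variance trend.

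Alas1, the housekeeping counterpart of Alas2, measured 7.62, 7.57 and 7.97 FPKM in B6, 9.58, 10.3 and 11.9 in C3H and 8.18, 8.66 and 9.25 in WSB. The C3H mice again lay above all others, but the difference from B6 (log2 0.44, SE 0.10) did not pass, at adjusted p = 0.0501 by limma, and it passed in 4 of 9 alternative fits that kept all mice. In WSB against B6, 1 heme gene of 16 was lower and 0 were higher, where 5.90% of all genes passed and 3.09% were lower. It was Cpox, a later enzyme of the pathway, at 4.59 ± 0.169 FPKM against 6.48 ± 0.254 (log2 difference -0.49, SE 0.08, adjusted p = 0.0158). The Cpox call held in only 1 of 6 fits that each left out a mouse, that without WSB replicate 2. Alad was the only heme gene that passed in WSB against C3H, where 5.74% of all genes did, 2.61% as higher and 3.13% as lower. The median log2 difference of the 16 genes was 0.14 in C3H against B6, -0.05 in WSB against B6 and -0.12 in WSB against C3H, beside 0.00 or 0.01 in absolute size over all genes tested. Alas2 thus stood with Alad and Alas1 in that its 3 C3H mice exceeded all others. Fech, which inserts the iron at the last step, did not pass in any comparison and averaged 18.4, 19.4 and 18.0 FPKM in B6, C3H and WSB.

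**Figure D4:**
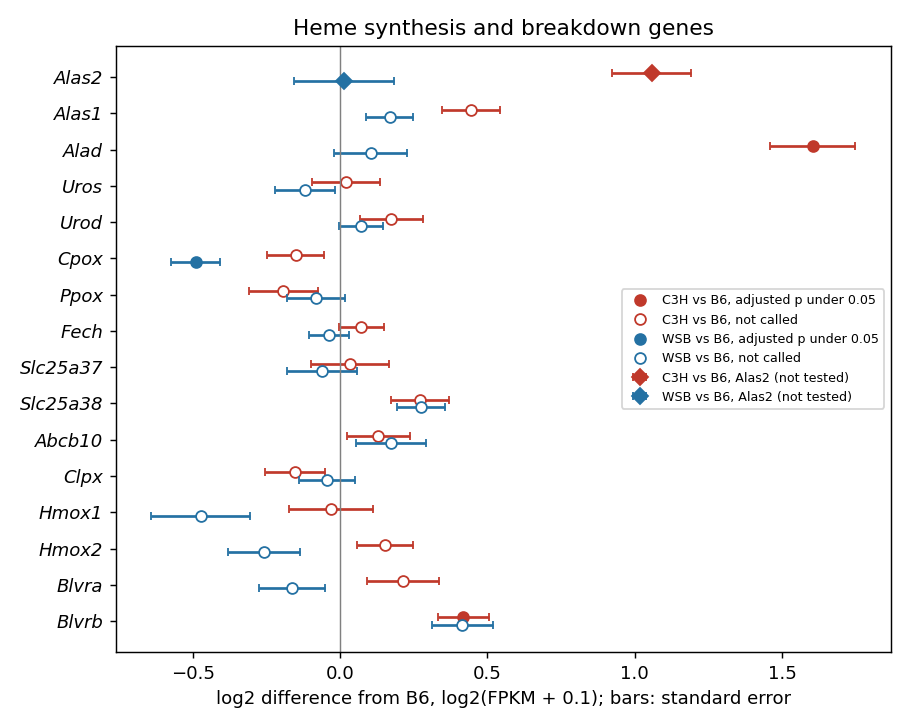
Log2 difference from B6 in C3H and in WSB of Alas2 and other heme genes of the list, on the scale of log2(FPKM + 0.1), with standard errors as bars and filled circles where the adjusted p from limma was under 0.05 (Alas2, drawn as a diamond, was not tested). Alad in C3H, at 1.60, and Alas2 in C3H, at 1.06, lie farthest to the right, and Cpox is the only filled circle for WSB.

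Red cell genes outside the globins stayed near the limit of detection. Of 23 such genes in the table, 18 were under 1 FPKM in every mouse, and Gata1, the master factor of red cell precursors, and Rhag, a membrane protein gene of red cells, were listed at 0 in all 9. Slc4a1, which encodes the band 3 anion exchanger of the red cell membrane, had 1 to 4 reads per B6 mouse, 5 to 7 per C3H mouse and 1 to 4 per WSB mouse. The C3H mice, at 0.0527 to 0.0739 FPKM, lay above all others, which reached at most 0.0492, but at so few reads Slc4a1 was not tested. Klf1, an activator of beta globin, reached at most 0.307 FPKM, with B6 and C3H overlapping. The summed level of the list ranged over 136 to 151 FPKM in B6, 126 to 161 in C3H, and in WSB 128 to 145, and Bpgm and Tfrc, which brain cells also express, were among its most abundant genes.

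Between 9 and 11 of these red cell genes were abundant enough to be tested. In C3H against B6 and in WSB against B6, limma called 0 of them, with 3 of 9 and 1 of 11 at an unadjusted p under 0.05, where 24.1% and 20.4% of all genes tested were. With voom weights Tfrc was called in C3H against B6 and 0 genes in WSB against B6, and 3 other alternatives for WSB against B6 called Ube2l6. In WSB against C3H, 1 gene passed, Ube2l6, an enzyme gene of the interferon response as well as of red cells. It measured 4.04, 4.40 and 4.80 FPKM in C3H and 1.72, 2.14 and 1.65 in WSB (log2 difference -1.23, SE 0.14, adjusted p = 0.00337). Tfrc, the transferrin receptor gene, was lower in all 3 C3H mice than in the B6 mice, at 12.9 ± 2.39 against 18.1 ± 1.75 FPKM, but did not pass (adjusted p = 0.0940).

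Genes of the other cells that blood and vessels bring were read in the same fits. Of 30 white cell and platelet genes, 22 were under 1 FPKM in every mouse. The summed level was 58.6 to 80.5 FPKM in B6, 77.6 to 91.4 in C3H, and in WSB 64.3 to 65.7. Most of this sum was Coro1a, with strain means of 51.8 (B6), 60.4 (C3H) and 50.3 FPKM (WSB). The sum therefore followed mainly a single gene, and whether it measures blood content was not tested. None of the 30 genes passed in C3H against B6 by limma. Of 19 tested, 7 had an unadjusted p under 0.05, where 24.1% of all genes tested did. Here voom weights called 1, Ly6c2, a monocyte gene, at 0.170 to 0.275 FPKM in C3H against at most 0.0171 in B6. S100a9, a neutrophil gene, measured 1.85, 1.29 and 0.494 FPKM in C3H and at most 0.443 in the other mice, and its highest value was not in the C3H mouse with the highest globin sum. In C3H against B6, 11 of the 19 genes tested had a log2 difference above 0, with a median of 0.30 beside -0.004 over all genes tested. In WSB against C3H 3 of 17 did, with a median of -0.35 beside 0.01. In WSB against B6 5 of 14 did, with a median of -0.10 beside 0.002. Gp9 and Cd79b averaged less in C3H than in B6, at 0.0781 against 0.392 and 0.109 against 0.295 FPKM, and did not pass. Cd74, of antigen-presenting cells, was lower in WSB than in B6 (log2 difference -0.77, adjusted p = 0.0309) and than in C3H (log2 difference -1.17, adjusted p = 0.00861), and the first of these calls held with only B6 replicate 1 left out.

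Of 20 endothelial and mural genes, 1 was higher in C3H than in B6, where 2.38% of all genes were, namely Eng, a receptor gene of vessel endothelium (log2 difference 0.59, adjusted p = 0.0405 by limma). In WSB against B6, 3 were lower, Ly6c1, Slco1a4 and Acta2, where 3.09% of all genes were. In WSB against C3H, where 19 were tested, Ly6c1 and Slco1a4 were lower and Rgs5, a pericyte gene, was higher, beside 3.13% of all genes lower and 2.61% higher. The Ly6c1 calls held with any mouse left out, the Eng call only without C3H replicate 2, and the Slco1a4 calls in no fit that left out a mouse. The Acta2 call was lost without any B6 mouse or WSB replicate 1, and the Rgs5 call without C3H replicate 3 or WSB replicates 1 or 3. The summed level of these vessel genes was 92.0 to 96.3 FPKM in B6, 86.4 to 112 in C3H, and in WSB 76.2 to 83.9. The strains thus overlapped between B6 and C3H. Ly6c1, which is part of this sum, was listed at 0 in every WSB mouse and averaged 10.8 FPKM in B6 and 14.2 in C3H. Whether the WSB sum would lie below the B6 sum without Ly6c1 was not tested. By limma 0 choroid plexus genes passed in any comparison, with 1 of 10 at an unadjusted p under 0.05 in WSB against B6 and 0 in the others, and voom weights called 0. Of the 14 cortex markers, Syt1, a synaptic vesicle gene, was lower in C3H than in B6 (log2 difference -1.11, adjusted p = 0.000270 by limma) and higher in WSB than in C3H (0.86, adjusted p = 0.00179), and Gfap, an astrocyte gene, was lower in WSB than in C3H (-0.70, adjusted p = 0.0141). The shares of all genes called in these directions were 2.26%, 2.61% and 3.13%. The Gfap call was lost without WSB replicate 1 or 3, with all 9 mice in 1 fit and without a variance trend. The part of blood or vessel content in the globin levels was not tested.

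The genes whose levels ran most closely with the globin sum over the 9 mice were sought among 13005 genes of at least 1 FPKM. They were Rhoa, a small GTPase gene (r = 0.972, Spearman's rho 0.967), Asb16 (0.972 and 0.867), Cox7a2, a respiratory chain gene (0.969 and 0.983), Psmc2, a proteasome gene (0.968 and 0.783), and the ribosomal pseudogene Rps2-ps10 (0.966 and 0.933). Leaving out the 2 mice farthest from the median of the globin sum, C3H replicates 3 and 1, gave r from 0.917 to 0.969. C3H replicate 2, at 629 FPKM, stayed in, so these values still include the strain difference. Because the genes were also chosen for high r in these mice, the values do not show how stable r is. The C3H mice stand apart from the others in the globin sum, and r over all mice includes that strain difference. After the strain means were removed, r was 0.876 for Rhoa, 0.818 for Asb16, 0.648 for Cox7a2, 0.683 for Psmc2 and 0.359 for Rps2-ps10. Rhoa averaged 17.4 FPKM in B6, 19.7 in C3H and 18.1 in WSB, so its differences between strains were much smaller than those of the globins, and Rps2-ps10 averaged 0.544, 506 and 1.52 FPKM. The search took the highest r only, not the lowest. Of the listed genes, the highest were Alad, r = 0.948 (rho 0.767), and Alas1, r = 0.921 (rho 0.883), with 0.208 and 0.615 after strain means were removed. The lowest were Syt1, r = -0.968 (rho -0.850), and Tfrc, r = -0.854 (rho -0.783), with -0.459 and -0.759 after strain means were removed. The mice share their strain, and these values are descriptions of 9 libraries.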

How the data were processed

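The libraries held cortex mRNA of 9 male mice, read from both ends over 150 bp. After trimming (Cutadapt) and counting (HTSeq), the authors ran DESeq2 and deposited FPKM values. STAR is named in the submitters' processing notes, and no version of these tools is given in the sources used here. No column of values was left unused. FPKM times gene length gave whole reads (within 0.01) for 100% of values, which were used for depth, shares and voom weights. Mice of one strain differed beyond sampling noise (chi-square per gene 7.87 to 24.1).

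Strains were compared 2 at a time with limma 3.58.1 in R 4.3.3 (two-sided, lmFit and a trended eBayes) on log2(FPKM + 0.1) for genes of at least 0.1 FPKM on average. On 5 simulated sets for C3H against B6, each with 200 changed genes among 20556, it found 79% of them. Of the genes it called, 9.2% had not been changed. Both shares hold for those sets only. How often differences of the size seen in the listed genes are found was not tested. The 4 globin genes and Alas2, and the gene lists, were chosen with earlier results of these data known. Named were these 5 genes, listed genes that passed, defining red cell genes, the other globins, genes overlapping the 5 and the 5 genes most alike the globin sum; Alas1, Blvrb in detail, Fech, Ttr, S100a9, Tfrc, Rhag and other listed genes that did not pass were named after their values were seen. Some listed genes are not reported here by name. Wilson intervals (95%) cover counting error only. Positions follow GRCm38 with GENCODE M21, and promoters RefSeq GRCm38.p6, in which all 5 genes were matched. The alternatives were pseudocounts of 1 and 0.01, no filter or 1 FPKM, rescaling by median ratios or to total reads, reads in place of FPKM, all 9 mice in 1 fit, voom weights, no variance trend, a block for the replicate number, and leaving out each mouse.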

Additional observations from a re-analysis of the deposited data

How the results depend on the processing

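With the 9 mice in 3 groups of 3, leaving out single mice moved several values, and genes with few reads, such as Hba-a2 and Hbb-bt in single mice, are limited by depth. The replicate numbers do not pair the mice, since the correlations of same-numbered deviations were -0.157 to 0.037. With the replicate number as a block, limma called 754 genes for WSB against B6 (1224 without it), 480 for C3H against B6 (956) and 531 for WSB against C3H (1182), 0 heme genes for WSB against B6 (1), 1 for C3H against B6 (2) and 1 red cell gene for WSB against B6 (0). Voom weights called 1488 genes for C3H against B6, 1 red cell gene there (0 in the report), 2 red cell genes for WSB against C3H (1) and 2 heme genes for WSB against C3H (1). All 9 mice in 1 fit gave 2 heme genes for WSB against B6, 2 for WSB against C3H and 1 red cell gene for WSB against B6, the filter of 1 FPKM gave 1 red cell gene for WSB against B6, and the fit without a variance trend gave 1 heme gene for C3H against B6. The log2 ratio of Hbb-bs to Hbb-bt was 2.54 in B6 by reads in place of FPKM (2.41) and 6.19 in WSB with a pseudocount of 1 (7.13).

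With each mouse left out in turn, calls over all genes ranged over 651 to 825 for WSB against B6, 498 to 2301 for C3H against B6 and 475 to 2002 for WSB against C3H, the highest counts being those without C3H replicate 2. Heme calls ranged over 0 to 1, 1 to 5 and 1 to 2, with the 5 again without C3H replicate 2, and red cell calls over 0 to 0, 0 to 1 and 1 to 1. The log2 ratio of Hba-a1 to Hba-a2 ranged over 2.16 to 2.50 in B6, 1.85 to 4.88 in C3H, and in WSB 1.79 to 5.12, and that of Hbb-bs to Hbb-bt over 2.36 to 2.44, 4.42 to 6.50 and 6.67 to 7.51. The log2 difference in summed globins ranged over 1.47 to 1.81 for C3H against B6, 0.20 to 0.40 for WSB against B6 and -1.51 to -1.17 for WSB against C3H. The direction of Hba-a2 turned, over -1.96 to 1.39 for WSB against B6, -0.21 to 2.69 for C3H against B6 (-0.18 without C3H replicate 2) and -3.49 to 0.62 for WSB against C3H, and that of Alas2 for WSB against B6, over -0.11 to 0.12 (-0.05 and -0.01 without B6 replicates 1 and 2). The cause was not tested. Among the alternatives that left out no mouse, 85 of the values compared for the strains, lists and ratios kept their size and 17 moved as given above.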
